A study of Mus musculus with 9 samples.

Results

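PPARγ binding was examined around Acsl1, Acsl3 and Acsl5, the genes of 3 long-chain acyl-CoA synthetases, in interscapular brown adipose tissue (iBAT) over a 24-h period. A peak was a member when its midpoint lay in one of 3 windows of the mouse genome mm10, chr8:46360000-46560000 for Acsl1, chr1:78640000-78720000 for Acsl3 and chr19:55230000-55320000 for Acsl5. The windows held 41 of the 66066 peaks in the table, of which 29 were around Acsl1, 6 around Acsl3 and 6 around Acsl5. The nearest peaks outside the windows had means of 62.1 and 69.5 normalized counts around Acsl1, 97.8 and 67.4 around Acsl3 and 238 and 289 around Acsl5. Peaks were numbered within each window from the lowest coordinate, so that Acsl1 peak 15, Acsl3 peak 5 and Acsl5 peak 2 were the peaks that hold the first start site of each gene. The tissue was taken from male C57BL/6J mice, an inbred strain, at 10 weeks of age. The mice were housed at 22 °C under a 12h:12h light:dark cycle with chow and water freely available, and the labels name no modified allele and no drug. Chromatin was made from tissue pooled from 8 mice at each of 8 time points, every 3 h from ZT0 to ZT21, and 1 library was sequenced per pool after immunoprecipitation with an antibody against PPARγ. Zeitgeber time (ZT) 0 is the onset of the light (inactive) phase and ZT12 the onset of the dark (active) phase. An input library of ZT12 was not used here.

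Acyl-CoA synthetases join a fatty acid to coenzyme A, the step that traps the fatty acid in the cell and makes it usable for oxidation, for elongation or for the synthesis of triglycerides and phospholipids. ACSL1 is the main long-chain form of adipocytes and is required in brown adipocytes for the oxidation of fatty acids that feeds heat production, ACSL3 is found at the endoplasmic reticulum and on growing lipid droplets, and ACSL5 is a form of mitochondria and endoplasmic reticulum that is abundant in the intestine and liver. PPARγ is the nuclear receptor that directs adipocyte differentiation. Together with its partner RXR it occupies mostly direct repeats with a spacer of one base (DR1), and Acsl1 has long been known as a gene that responds to PPAR ligands.

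The values below are normalized counts, the number of reads counted in a peak after scaling of each library by its total and its TMM factor (trimmed mean of M values) to the mean library total. Peaks with a mean of at least 1000 normalized counts are called strong, a rank by counts that longer peaks reach more easily, and densities are given per kb of peak length. Oscillation was assessed by JTK-cycle, an exact rank test that compares the order of the 8 libraries with cosine patterns of 21 or 24 h. Its adjusted P value corrects for the 15 patterns tried on a peak and not for the number of peaks, and can only take a few values, the smallest being 0.000744, 0.00595, 0.0260 and 0.0826. A 24-h cosine was also tested by edgeR's quasi-likelihood method, with Benjamini-Hochberg adjustment over all 66066 peaks. Both thresholds were 0.05. No time point was replicated, so the departures of the libraries from a smooth curve serve as the error, and a difference between time points cannot be told apart from a difference between pools or preparations. The read count of a peak in bulk tissue also cannot tell a change in the share of cells that have PPARγ at the site from a change in binding per cell.

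In all, 29572225 to 34264812 reads per library were counted in peaks, and the TMM factors lay between 0.959 and 1.04. The share of reads in the strongest 10% of all peaks was highest at ZT6 with 48.0% and lowest at ZT15 with 44.2%. Among the 7723 peaks whose mean reached 1000, the median log2 deviation from a peak's own mean was 0.09 at ZT6 and -0.09 at ZT15, 34.4% had their highest value at ZT6 and 32.7% had their lowest value at ZT15. These tendencies of strong peaks moved in the same direction as most of the strong Acsl1 peaks described below, and their part in those values was not tested. Peaks were present at 4 of 5 brown adipocyte genes (none was assigned to Prdm16) with 280 to 1334 normalized counts per kb at their densest peak, and at 4 of 4 genes of all adipocytes with 603 to 1002 per kb. Peaks were also assigned to 3 of 4 skeletal muscle genes with 344 to 552 per kb, 3 of 3 liver genes with 119 to 363 per kb and 1 of 3 immune genes with 163 per kb, where the median of all peaks was 270 per kb.

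To show what PPARγ could contact within the members, the peak sequences were read on both strands for DR1 elements, that is the half-site AGGTCA repeated after a spacer of 1 base, with up to 2 mismatches among the 12 fixed bases. Such an element was found in 15 of the 41 peaks, against 13.6 expected from the share of all peaks within 10% of the same length that hold one. None of the 41 peaks held a perfect element, and 2 held an element with 1 mismatch. One of the best elements of each strong peak that had any, of peak 21, and the 2 elements of peak 3 and that of peak 14 with 1 mismatch each are given 5′ to 3′ on the strand that reads as the repeat, from mm10, with the element of 13 bases in capitals and 12 bases on each side.
Acsl1 peak 3, chr8:46388702-46388738, minus strand: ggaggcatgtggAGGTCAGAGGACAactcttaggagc
Acsl1 peak 3, chr8:46391128-46391164, plus strand: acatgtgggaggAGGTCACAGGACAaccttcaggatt
Acsl1 peak 6, chr8:46414440-46414476, plus strand: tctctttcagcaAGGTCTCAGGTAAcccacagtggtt
Acsl1 peak 14, chr8:46449422-46449458, minus strand: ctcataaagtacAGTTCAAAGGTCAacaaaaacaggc
Acsl1 peak 18, chr8:46484837-46484873, plus strand: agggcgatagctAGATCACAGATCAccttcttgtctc
Acsl1 peak 19, chr8:46493954-46493990, plus strand: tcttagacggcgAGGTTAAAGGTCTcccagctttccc
Acsl1 peak 21, chr8:46503492-46503528, minus strand: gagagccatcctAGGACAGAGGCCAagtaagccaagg
Acsl3 peak 5, chr1:78656783-78656819, minus strand: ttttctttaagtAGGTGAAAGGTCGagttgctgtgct
Acsl5 peak 2, chr19:55250810-55250846, minus strand: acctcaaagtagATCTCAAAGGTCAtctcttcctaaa
Acsl5 peak 3, chr19:55260586-55260622, plus strand: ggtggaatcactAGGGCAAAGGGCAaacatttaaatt

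Acsl1 peak 3, second among the members by mean count, held 3 elements. The pair shown had 1 mismatch each, T11A in both, with positions counted from 1 at the 5′ end of the repeat and the base of the repeat given first. An element as good was held by 15.7% of the 230 peaks of like length. The element of Acsl1 peak 14, a weak peak, differed from the repeat only by G3T, and 4.20% of the 7279 peaks of its length held one as good. Among the 7 strong Acsl1 peaks, no element with up to 2 mismatches was found in peaks 5, 15 and 16, while 66.8% of the 403 peaks of the length of Acsl1 peak 15 held one. The motif of C/EBP factors, TTGCNNAA, was present in 31 of the 41 peaks with 22.5 expected by length. The E-box CACGTG was found in 15 with 10.6 expected, the D-box TTATGNAA in 11 with 11.1 expected, and the element of ROR and REV-ERB receptors, the half-site AGGTCA preceded by AANT, which overlaps the DR1 half-site, in 1 with 1.1 expected. These are counts of letters, and binding at a given element was not measured.

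The start sites themselves lay in different kinds of sequence. Over the RefSeq promoter of 300 bases (250 before the start and 50 after it, GRCm38.p6), 74.0% of bases were G or C at the first Acsl1 start and 74.0% at the Acsl3 start, against 50.0% at the second Acsl1 start and 53.0% at the Acsl5 start, with a median of 52.7% over 32851 promoters. None of the 4 promoters held any of the 5 motifs, which 3.86% of all promoters hold for DR1, 10.8% for C/EBP, 7.15% for the E-box, 3.38% for the D-box and 0.22% for the ROR and REV-ERB element. The 60 bases just before each start are given to show this contrast.
Acsl1, chr8:46470977-46471036, plus strand: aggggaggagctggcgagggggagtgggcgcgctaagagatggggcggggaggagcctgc
Acsl1, chr8:46490906-46490965, plus strand: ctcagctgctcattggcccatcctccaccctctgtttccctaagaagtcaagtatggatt
Acsl3, chr1:78657765-78657824, plus strand: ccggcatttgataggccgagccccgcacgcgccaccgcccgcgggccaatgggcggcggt
Acsl5, chr19:55253309-55253368, plus strand: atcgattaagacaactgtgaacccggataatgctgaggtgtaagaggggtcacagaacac

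PPARγ binding at the start of Acsl1 passed both tests, with its highest value in the light phase at ZT6. The peak at the start of Acsl5 passed the cosine only and had its highest value in the dark phase at ZT15, and the peak at the start of Acsl3 passed no test. By JTK-cycle, 10 of the 29 Acsl1 peaks, 1 of the 6 Acsl3 peaks and 0 of the 6 Acsl5 peaks were oscillating, together 11 of 41, where 11.6% of all peaks were. Of the called peaks in the Acsl1 window, peak 2 lay nearest to the start of Helt and peaks 24 and 29 to that of Cenpu. With peaks assigned by nearest start site instead, JTK-cycle called 7 peaks of Acsl1, 1 of Acsl3 and 0 of Acsl5, and the cosine 8, 0 and 1. By the edgeR cosine, 8 Acsl1 peaks, 0 Acsl3 peaks and 1 Acsl5 peak passed, together 9 of 41, where 13.4% of all peaks did. At an unadjusted edgeR P under 0.05 the cosine passed at 1 Acsl3 peak and 4 Acsl5 peaks. The DESeq2 likelihood ratio test called 1 Acsl3 peak and 2 Acsl5 peaks, while the lowest JTK-cycle adjusted P of an Acsl5 peak was 0.0826. The shares of all peaks under these looser rules are not given here, so the counts have no background to be read against. The 6 peaks that passed both tests all lay at Acsl1, where 6.71% of all peaks passed both. Among all peaks with a mean of at least 1000, the shares were 20.8% by JTK-cycle and 27.4% by the cosine, and of the 10 members as strong as that, 5 and 8 passed. Both tests were passed by 1183 of these 7723 strong peaks and by 5 of the 10 strong members. Each of the 11 calls by JTK-cycle was made at an adjusted P of 0.0260, and after Benjamini-Hochberg adjustment over all peaks the lowest q value of a member was 0.224, so no call remained after adjustment for the number of peaks. The highest value of a member was 1.18 to 2.55 times its lowest, with a median of 1.51, which is close to the 1.52 of all peaks. Without the ZT6 library, 5 members were called by JTK-cycle and 5 by the cosine, without ZT18 the cosine called 1 member, and without ZT21 JTK-cycle called 7. JTK-cycle called 5 members with library totals only or with cyclic loess, and 1 where equal values of a cosine pattern were kept tied rather than ordered. The tied patterns were scored by the distribution for untied values, whose highest scores they cannot reach. For the counts without a library, with another scaling or with tied patterns, the shares of all peaks are not given here either.

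**Figure D1:**
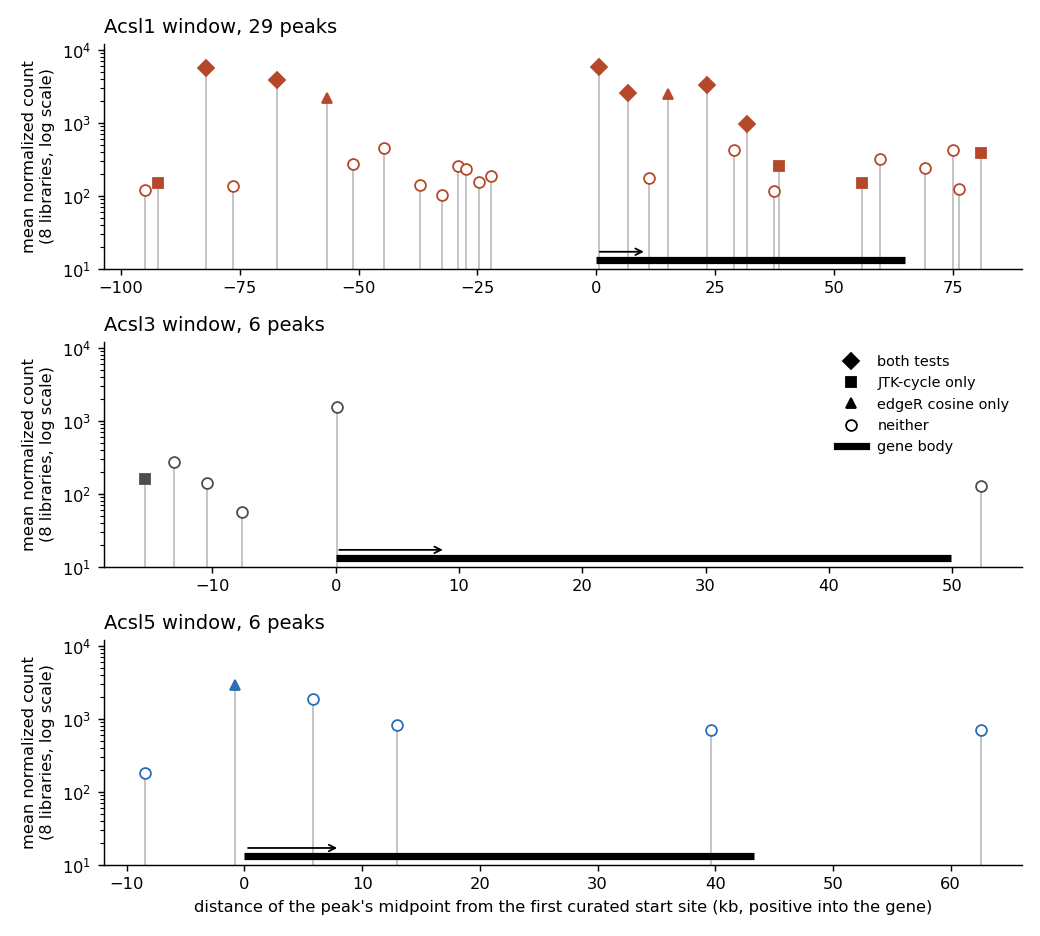
Mean normalized count of the 41 member peaks (log scale) against the distance of the peak's midpoint from the first start site of each gene (kb). Filled diamonds passed both tests, squares JTK-cycle only, triangles the edgeR cosine only and open circles neither; all diamonds stand in the Acsl1 window and 4 of these 6 lie at or inside the gene.

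Acsl1, on the plus strand from 46471037 to 46536051 of chromosome 8 with 21 exons, had the most peaks of the 3 genes. Its 29 peaks together covered 62121 bases and held a mean of 31474 normalized counts, where the 6 peaks of Acsl3 covered 6427 bases with 2293 and the 6 of Acsl5 covered 19334 bases with 7212. The 7 peaks with a mean of at least 1000 took 81.6% of the Acsl1 counts, and all 7 passed the cosine test and 5 JTK-cycle. Their fitted maxima lay between 5.47 and 9.80 h. Summed over the window, the value was highest at ZT6 with 36901 and lowest at ZT18 with 26647, 1.38 times apart.

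Acsl1 peak 15 (chr8:46468943-46474324) spanned the first start site and the start of intron 1, and had the highest mean count of the members, 5762 normalized counts, and the second highest density, 1071 per kb. Its normalized counts were 5702, 6373, 7291 and 6139 from ZT0 to ZT9 and 5961, 4696, 4721 and 5209 from ZT12 to ZT21. The value rose through the first hours of the light phase to ZT6, fell to its lowest in the dark phase at ZT15 and ZT18, and the highest was 1.55 times the lowest. The Wilson intervals at 95%, which cover counting error only, ran from 7128 to 7458 at ZT6 and from 4565 to 4830.1 at ZT15. The peak was oscillating with a LAG, the estimated time of the maximum, of 6 h (JTK-cycle, adjusted P = 0.0260), and had a cosine amplitude of 0.28 ± 0.04 on the log2 scale (SE) with a maximum at 5.73 ± 0.526 h (edgeR, adjusted P = 0.00269). It was the only member that passed the cosine test without each of the 8 libraries in turn (adjusted P of 0.00365 to 0.0280), whereas JTK-cycle no longer called it without ZT3, ZT6 or ZT9. Under cyclic loess the ratio was 1.22, still with ZT6 highest and ZT15 lowest, and the cosine had an amplitude of 0.12 and was not called (edgeR, adjusted P = 0.0591).

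Upstream of Acsl1, 14 peaks lay up to 94.8 kb before the first start, all of them intergenic, and 3 of these were strong. Acsl1 peak 3 (chr8:46385640-46392137), 82.1 kb before the start, held the DR1 elements with 1 mismatch shown above. It held normalized counts of 5302, 6530, 6521 and 5883 from ZT0 to ZT9 and 5739, 5065, 4689 and 5081 from ZT12 to ZT21. Both ZT3 and ZT6 were high and nearly equal and ZT18 was lowest, 1.39 times apart. The peak passed both tests (JTK-cycle, adjusted P = 0.0260, LAG 6 h; edgeR cosine, adjusted P = 0.00707, log2 amplitude 0.22 ± 0.03), and under cyclic loess its amplitude was 0.06 and neither test was passed (JTK-cycle, adjusted P = 0.467; edgeR cosine, adjusted P = 0.415). Without ZT9 the JTK-cycle call was lost, and without ZT18 the cosine call. Acsl1 peak 5 (chr8:46402701-46405131), 67.1 kb before the start, was the densest member with 1569 normalized counts per kb. Counts of 3749.7, 4224, 4731 and 4191 from ZT0 to ZT9 and 3921, 2989, 3018 and 3688 from ZT12 to ZT21 were found after normalization. It was high from ZT3 to ZT9 and lowest at ZT15 and ZT18, and passed both tests (JTK-cycle, adjusted P = 0.0260, LAG 6 h; edgeR cosine, adjusted P = 0.00514, log2 amplitude 0.29 ± 0.05, maximum at 5.47 ± 0.671 h). Both calls were kept under cyclic loess, with an amplitude of 0.16. JTK-cycle did not call it without ZT3, ZT6 or ZT9, nor the cosine without ZT18.

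Acsl1 peak 6 (chr8:46412837-46415922), 56.7 kb before the start, followed another course. The normalized counts were 2030, 2048, 2333 and 2334 from ZT0 to ZT9 and 2528, 2369, 1851 and 1681 from ZT12 to ZT21. The highest value stood at ZT12 and the lowest at ZT21, 1.50 times apart, with a fitted maximum at 9.80 ± 0.858 h. It passed the cosine test (edgeR, adjusted P = 0.0198, log2 amplitude 0.24 ± 0.05) but not JTK-cycle (adjusted P = 0.0826), and the cosine call was lost without ZT12, ZT18 or ZT21. Relative to the raw count of the neighbouring peak 5 in the same library, it stood at 0.541, 0.485, 0.493 and 0.557 from ZT0 to ZT9 and 0.645, 0.793, 0.614 and 0.456 from ZT12 to ZT21. A scaling factor per library cancels in this ratio, but an adjustment by peak strength such as cyclic loess does not. This ratio was chosen after its values were seen and was given no test. By comparison, the ratio of peak 5 to the start-site peak 15 kept between 0.637 and 0.708 over the 8 libraries.

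Inside the gene, introns 1 and 2 carried 3 further strong peaks and peak 21, whose mean was just under 1000. Acsl1 peak 16 (chr8:46474657-46481000, intron 1) had normalized counts of 2228, 2750, 2854 and 2801 from ZT0 to ZT9 and 2812, 2636, 2221 and 2317 from ZT12 to ZT21. It was high from ZT3 to ZT12 and low at ZT0 and ZT18, and passed both tests (JTK-cycle, adjusted P = 0.0260, period 21 h, LAG 9 h; edgeR cosine, adjusted P = 0.0267, log2 amplitude 0.19 ± 0.04). Its time of the highest value moved from ZT6 to ZT12 with library totals only and to ZT15 with cyclic loess, and JTK-cycle no longer called it under cyclic loess or upper-quartile factors, nor the cosine under library totals only or cyclic loess, which gave an amplitude of 0.13. The JTK-cycle call was lost without ZT0, ZT3, ZT15, ZT18 or ZT21 and the cosine call without ZT0, ZT6, ZT12, ZT18 or ZT21. Acsl1 peak 18 (chr8:46482672-46489611, intron 1) had normalized counts of 2192, 2430.3, 2981 and 2694 from ZT0 to ZT9 and 2822, 2413, 2086 and 2169 from ZT12 to ZT21. Here ZT6 was highest and ZT18 lowest, and the cosine passed (edgeR, adjusted P = 0.0106, log2 amplitude 0.24 ± 0.04) while JTK-cycle gave an adjusted P of 0.0826. The cosine call was lost without ZT18 alone.

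Acsl1 peak 19 (chr8:46489789-46498911) was the longest member with 9123 bases, held the second curated start site of Acsl1 at position 46490966 and reached into intron 2. It had normalized counts of 3208, 3363, 3925 and 3512 from ZT0 to ZT9 and 3502, 3212, 2894 and 2961 from ZT12 to ZT21. ZT6 was highest and ZT18 lowest, 1.36 times apart (JTK-cycle, adjusted P = 0.0260, LAG 9 h; edgeR cosine, adjusted P = 0.0262, log2 amplitude 0.18 ± 0.03). JTK-cycle called it without each of the 8 libraries in turn, yet neither test was passed with library totals only or with cyclic loess, which gave an amplitude of 0.07, and the cosine call was lost without ZT6, ZT15, ZT18 or ZT21. Acsl1 peak 21 (chr8:46501372-46504165, intron 2) had normalized counts of 937, 1093, 1214 and 979.6 from ZT0 to ZT9 and 958, 949.9, 803 and 844 from ZT12 to ZT21. It was highest at ZT6 and lowest at ZT18, 1.51 times apart (JTK-cycle, adjusted P = 0.0260, LAG 7.5 h; edgeR cosine, adjusted P = 0.0389, log2 amplitude 0.22 ± 0.05), and both calls were lost without ZT6, ZT12, ZT18 or ZT21 and with library totals only or cyclic loess, and that of JTK-cycle also with upper-quartile factors. The maximum of the start-site peak at 5.73 h and those of peaks 16 and 18 at 8.61 and 8.52 h differ by about the size of one sampling interval, and the difference was not tested.

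**Figure D2:**
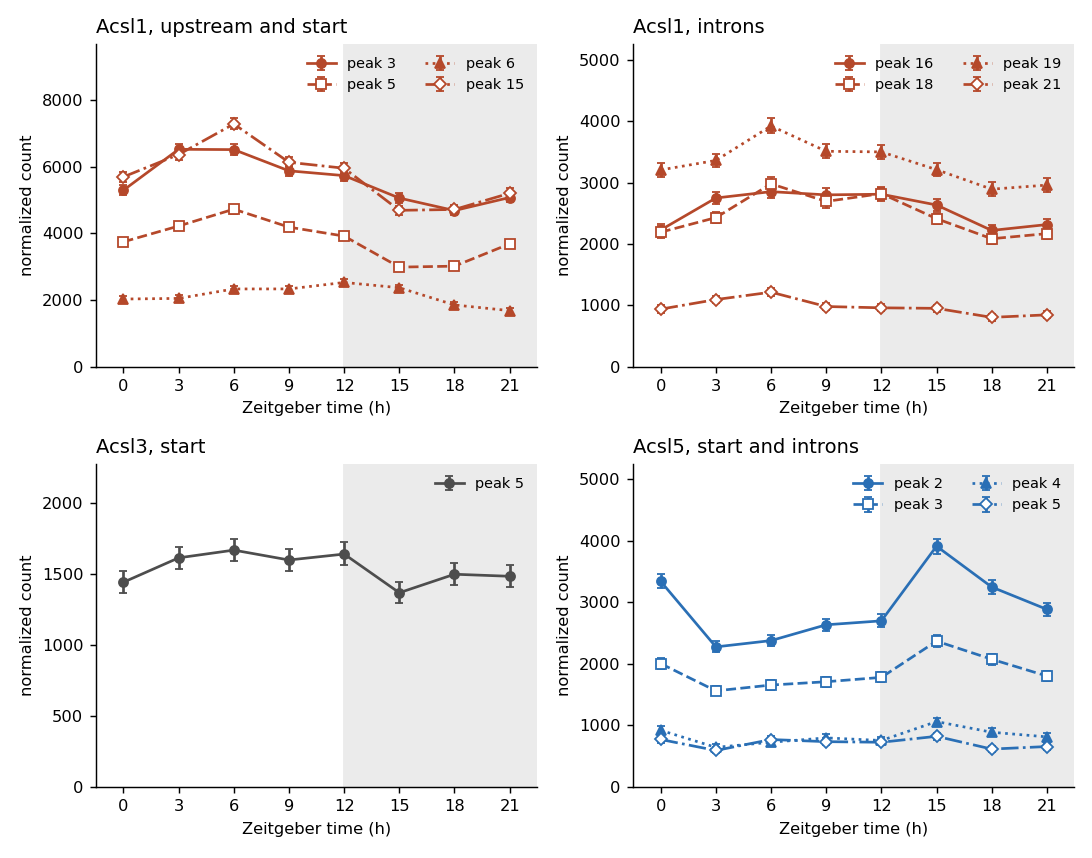
Normalized counts (linear axes from 0) of the start-site peaks and strong peaks by Zeitgeber time, with 95% Wilson intervals for counting error and the dark phase shaded. The Acsl1 peaks other than peak 6 are highest at ZT3 or ZT6 and lowest at ZT15 or ZT18, Acsl1 peak 6 is highest at ZT12, Acsl3 peak 5 stays between 1367 and 1667, and Acsl5 peaks 2 to 4 are highest at ZT15.

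The other 22 Acsl1 peaks had means of 102 to 972, of which peak 21 above was the strongest. Among the remaining 21, 4 were called by JTK-cycle (peaks 2, 23, 24 and 29) and 0 by the cosine (6 at an unadjusted edgeR P under 0.05 and 1 by the DESeq2 likelihood ratio test). Shares of all peaks at the unadjusted P or by DESeq2 are not given here. Acsl1 peak 2 (chr8:46378461-46379231, 92.2 kb upstream) had normalized counts of 162, 156, 179 and 155 from ZT0 to ZT9 and 150, 131, 114 and 148 from ZT12 to ZT21, highest at ZT6 and lowest at ZT18 (JTK-cycle, adjusted P = 0.0260; edgeR cosine, adjusted P = 0.185). Acsl1 peak 23 (chr8:46509011-46509921, intron 4) had 213, 240.3, 258 and 261 from ZT0 to ZT9 and 297, 272, 269 and 224 from ZT12 to ZT21. Its highest value stood at ZT12 and its lowest at ZT0 (JTK-cycle, adjusted P = 0.0260, LAG 13.5 h; edgeR cosine, adjusted P = 0.180). Acsl1 peak 24 (chr8:46526294-46527502, intron 13) had 128, 179, 179.8 and 196 from ZT0 to ZT9 and 144, 118, 119.8 and 141 from ZT12 to ZT21, with the highest value at ZT9 and a relative amplitude of 26.4%, the largest among the 10 oscillating Acsl1 peaks (JTK-cycle, adjusted P = 0.0260; edgeR cosine, adjusted P = 0.0501). Acsl1 peak 29 (chr8:46551495-46552399) lay at the start of Cenpu, a gene of the centromere that follows Acsl1, and had 401, 408, 475 and 416 from ZT0 to ZT9 and 388, 313, 324 and 377 from ZT12 to ZT21. Like the Acsl1 start it was highest at ZT6 and lowest at ZT15 (JTK-cycle, adjusted P = 0.0260; edgeR cosine, adjusted P = 0.0645). Of the 8 libraries left out in turn, the JTK-cycle call of peaks 2, 23, 24 and 29 was kept without 3, 4, 4 and 6 of them. The call was lost with library totals only at peaks 2, 24 and 29 (JTK-cycle, adjusted P = 0.0826, 0.212 and 0.0826) and with cyclic loess at peak 23 (adjusted P = 0.0826).

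Besides peak 2, 10 weak peaks lay upstream, which did not pass either test. Acsl1 peak 1 (chr8:46375904-46376530) had 117, 79.4, 120.5 and 100 from ZT0 to ZT9 and 133, 160.1, 106 and 132 from ZT12 to ZT21, peak 4 (chr8:46394175-46395231) had 118, 123, 169 and 136 from ZT0 to ZT9 and 117, 151, 115 and 151 from ZT12 to ZT21, and peak 7 (chr8:46419233-46420555) had 242, 293, 344 and 364 from ZT0 to ZT9 and 227, 227, 196 and 277 from ZT12 to ZT21. Peak 1 stood highest at ZT15, whereas peaks 4 and 7 stood highest at ZT6 and ZT9 and lowest at ZT18. Peak 8 (chr8:46425997-46426857), which held a DR1 element with 2 mismatches, had 456, 366, 528 and 496 from ZT0 to ZT9 and 461, 452, 355 and 490.2 from ZT12 to ZT21. Peak 9 (chr8:46433612-46434147) had 137, 145, 119 and 142 from ZT0 to ZT9 and 131, 147, 156 and 146 from ZT12 to ZT21, and peak 10 (chr8:46438311-46438973) had 88.3, 84.2, 91.3 and 135 from ZT0 to ZT9 and 125, 135, 71.9 and 88.4 from ZT12 to ZT21. The last of these was high from ZT9 to ZT15 and lowest at ZT18, a span of 1.88 times (JTK-cycle, adjusted P = 1; edgeR cosine, adjusted P = 0.0857). Peak 11 (chr8:46441545-46442486) had 232, 268, 252 and 277 from ZT0 to ZT9 and 267, 305, 257 and 207 from ZT12 to ZT21. Peak 12 (chr8:46443229-46444112) had 281, 229.7, 209 and 262 from ZT0 to ZT9 and 184, 253, 203 and 244 from ZT12 to ZT21. Both moved by no more than 1.53 times. Peak 13 (chr8:46445938-46446885) had 190.1, 161, 94.2 and 157 from ZT0 to ZT9 and 154, 151, 176 and 146 from ZT12 to ZT21, and peak 14 (chr8:46448535-46449469) had 175, 165, 151 and 189 from ZT0 to ZT9 and 209.6, 204, 175 and 200.4 from ZT12 to ZT21. At ZT6, where the strong Acsl1 peaks were high, peaks 13 and 14 had their lowest values.

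Within and behind the gene, 7 more weak peaks passed neither test. Peak 17 (chr8:46481834-46482408, intron 1) had 209.6, 176, 188 and 171 from ZT0 to ZT9 and 179.8, 169.8, 136 and 158 from ZT12 to ZT21, and peak 20 (chr8:46499206-46500970, intron 2), which held 3 DR1 elements with 2 mismatches, had 426, 434, 449 and 404 from ZT0 to ZT9 and 453, 431, 373 and 391 from ZT12 to ZT21. Peak 20 varied little, with a span of 1.22 times. Peak 22 (chr8:46508171-46508698, intron 4) had 120.2, 147, 138 and 109.9 from ZT0 to ZT9 and 135, 85.4, 102 and 98.7 from ZT12 to ZT21, and peak 25 (chr8:46530378-46531137, intron 16) had 373, 244, 335 and 379 from ZT0 to ZT9 and 425, 369.7, 245 and 166 from ZT12 to ZT21. Peak 25 showed the widest span of all members, 2.55 times between ZT12 and ZT21 (JTK-cycle, adjusted P = 0.212; edgeR cosine, adjusted P = 0.135). Behind the gene, peak 26 (chr8:46539627-46540708) had 255, 233, 241 and 256 from ZT0 to ZT9 and 216, 245, 244 and 221 from ZT12 to ZT21. Peak 27 (chr8:46545257-46547106) had 349, 490.1, 405 and 407 from ZT0 to ZT9 and 402, 425, 474 and 459 from ZT12 to ZT21, and peak 28 (chr8:46547291-46547681) had 119, 117, 126 and 113 from ZT0 to ZT9 and 119, 120.3, 154 and 123 from ZT12 to ZT21. The last 3 had their highest values at ZT9, ZT3 and ZT18, and peak 26 was the flattest member with a span of 1.18 times.

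Acsl3, on the plus strand from 78657825 to 78707743 of chromosome 1, shares its first start site with Utp14b, a gene of ribosome assembly, so binding at that start cannot be assigned to one of the genes. Acsl3 peak 5 (chr1:78656357-78659569) covered the start and exon 1, took 67.1% of the counts of the window and had 479 normalized counts per kb, against 1071 per kb at the Acsl1 start. Its normalized counts were 1441, 1613, 1667 and 1598 from ZT0 to ZT9 and 1639.5, 1367, 1497 and 1483 from ZT12 to ZT21. The values from ZT3 to ZT12 were above the others by a small margin, and the highest was 1.22 times the lowest. Neither test was passed (JTK-cycle, adjusted P = 0.915; edgeR cosine, adjusted P = 0.291, log2 amplitude 0.10 ± 0.04), and the Wilson intervals, 1590.3 to 1748 at ZT6 and 1298 to 1440.3 at ZT15, did not overlap. Under cyclic loess the amplitude was 0.04.

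The other 5 peaks of the Acsl3 window were weak, with means of 57.1 to 271. Acsl3 peak 1 (chr1:78642173-78642644, 15.4 kb upstream) was oscillating by JTK-cycle (adjusted P = 0.0260, LAG 10.5 h) but not by the cosine (edgeR, adjusted P = 0.225). Its normalized counts were 131, 145, 171 and 189 from ZT0 to ZT9 and 174, 165, 145 and 155 from ZT12 to ZT21, with ZT9 highest and ZT0 lowest, and the call was kept with 1 of 4 other scalings, that of DESeq2, and lost without ZT0, ZT6, ZT9, ZT12 or ZT15. Acsl3 peak 2 (chr1:78644381-78645126) had 259.9, 322, 351 and 297 from ZT0 to ZT9 and 247, 187, 259 and 247 from ZT12 to ZT21. Its extremes stood at the same time points as those of the Acsl1 start, ZT6 and ZT15, with 1.87 times between them, and neither test was passed (JTK-cycle, adjusted P = 0.0826; edgeR cosine, adjusted P = 0.0540). Acsl3 peak 3 (chr1:78646986-78647799) had 136, 149, 155 and 173 from ZT0 to ZT9 and 126, 116, 155 and 109 from ZT12 to ZT21. Acsl3 peak 4 (chr1:78649907-78650554), the weakest member and the only one with a mean under 100, ranged from 34.0 at ZT15 to 71.9 at ZT21. Acsl3 peak 6 (chr1:78709868-78710401, behind the gene) had 136, 101, 122 and 123 from ZT0 to ZT9 and 137, 129, 138 and 131 from ZT12 to ZT21. These 3 passed neither test.

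Acsl5, on the plus strand from 55253369 to 55296628 of chromosome 19 with 22 exons, had its highest values in the dark phase at 5 of 6 peaks, 4 of them at ZT15 and peak 1 at ZT18. Of all 66066 peaks, 10.6%, 18.1%, 11.4% and 8.79% had their highest value at ZT12, ZT15, ZT18 and ZT21. Acsl5 peak 2 (chr19:55249710-55255470) covered the start site and most of it lay before the gene. Its normalized counts were 3341, 2275, 2378 and 2635 from ZT0 to ZT9 and 2699, 3913, 3249 and 2886 from ZT12 to ZT21. ZT15 was highest and ZT3 and ZT6 were lowest, 1.72 times apart, and the Wilson intervals were 3794 to 4036 at ZT15 and 2186 to 2369 at ZT3. The cosine test was passed (edgeR, adjusted P = 0.0347, log2 amplitude 0.28 ± 0.10, maximum at 17.5 ± 1.32 h), with a call that was lost without ZT3, ZT6, ZT9, ZT15 or ZT18, while JTK-cycle gave an adjusted P of 0.212. The ratio of the highest to the lowest value was 1.80 with library totals only and 1.95 with cyclic loess, both with ZT15 highest and ZT3 lowest.

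The next 2 peaks, both in intron 1, had their extremes at the same time points as the start. Acsl5 peak 3 (chr19:55256425-55261951) had 2003, 1560.2, 1655 and 1709 from ZT0 to ZT9 and 1779, 2369, 2074 and 1802 from ZT12 to ZT21. Acsl5 peak 4 (chr19:55265035-55267541) had 918, 641, 725 and 795 from ZT0 to ZT9 and 753, 1060.5, 887 and 812 from ZT12 to ZT21. Each was highest at ZT15 and lowest at ZT3, 1.52 and 1.65 times apart, but neither passed a test (JTK-cycle, adjusted P = 0.0826 and 0.467; edgeR cosine, adjusted P = 0.0586 and 0.128). Acsl5 peak 1 (chr19:55244455-55245471, 8.41 kb upstream, between the starts of Gucy2g, a guanylate cyclase gene, and Acsl5) was weak and had 190.1, 155, 171 and 149.6 from ZT0 to ZT9 and 137, 214, 243 and 181 from ZT12 to ZT21, with ZT18 highest and ZT12 lowest. Acsl5 peak 5 (chr19:55291731-55294195, intron 17) had 769, 591, 769 and 734 from ZT0 to ZT9 and 724, 821, 613 and 655 from ZT12 to ZT21. It shared the highest value at ZT15 and the lowest at ZT3 with the start, but stood high at ZT6 and low at ZT18, unlike it. Acsl5 peak 6 (chr19:55314888-55316944) lay beyond the gene at the start sites of Zdhhc6, a palmitoyltransferase, and Vti1a, a protein of vesicle fusion, and had 597, 821, 594 and 667 from ZT0 to ZT9 and 739.6, 739, 761 and 744 from ZT12 to ZT21, with ZT3 highest and ZT6 and ZT0 lowest.

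**Figure D3:**
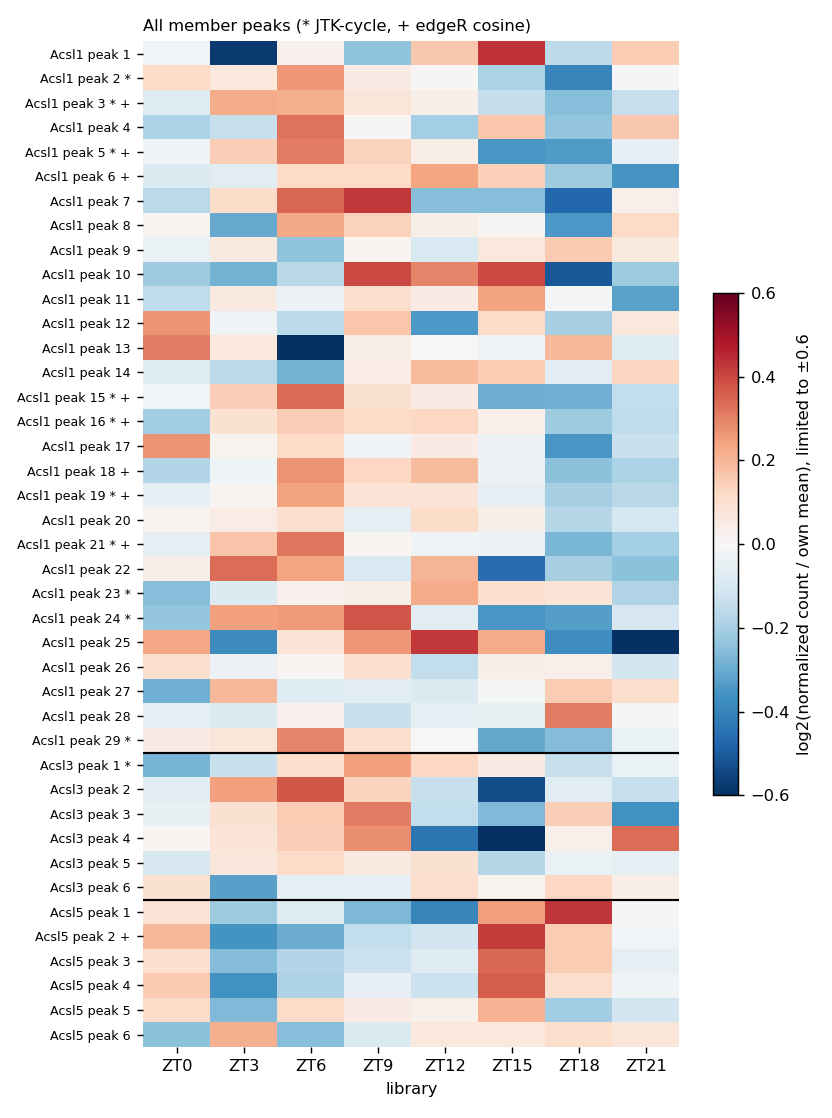
Log2 of the normalized count relative to each peak's own mean, for the 41 member peaks (rows) in the 8 libraries (columns), with colours limited to ±0.6. Stars mark JTK-cycle calls and plus signs cosine calls; Acsl1 rows with both marks are red at ZT6 and blue at ZT18, and the rows of Acsl5 peaks 2 to 4 are blue at ZT3 and red at ZT15.

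Whether the courses of the 3 start sites over the day differed was tested on the ratios of their raw counts within each library. Such a ratio can vary through a difference in amplitude as well as in timing, and the Acsl1 and Acsl3 starts were both highest at ZT6 and lowest at ZT15. A scaling factor per library cancels in these ratios, but a shift that depends on peak strength does not. The log2 cosine amplitudes at the Acsl1, Acsl3 and Acsl5 starts were 0.28, 0.10 and 0.28 with TMM. They were 0.12, 0.04 and 0.39 under cyclic loess, under which the ratios were not tested. The ratio of Acsl1 to Acsl5 was 1.71, 2.80, 3.07 and 2.33 from ZT0 to ZT9 and 2.21, 1.20, 1.45 and 1.80 from ZT12 to ZT21. It stood highest at ZT6 with a counting interval of 2.93 to 3.21 and lowest at ZT15 with 1.15 to 1.25, a range of 2.56 times, with a log2 amplitude of 0.55 ± 0.12 (SE) (exact JTK-cycle, P = 0.0260, 0.0391 after adjustment over the 3 pairs). The ratio of Acsl1 to Acsl3 was 3.96, 3.95, 4.37 and 3.84 from ZT0 to ZT9 and 3.64, 3.44, 3.15 and 3.51 from ZT12 to ZT21. It was highest at ZT6 and lowest at ZT18, 1.39 times apart, with a log2 amplitude of 0.18 ± 0.03 (exact JTK-cycle, P = 0.0260, adjusted 0.0391). The ratio of Acsl3 to Acsl5 was 0.431, 0.709, 0.701 and 0.606 from ZT0 to ZT9 and 0.608, 0.349, 0.461 and 0.514 from ZT12 to ZT21. It was highest at ZT3 and lowest at ZT15, 2.03 times apart, with a log2 amplitude of 0.37 ± 0.13, and was not called (exact JTK-cycle, P = 0.467, adjusted 0.467).

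Both calls of these ratios were close to the threshold. The adjusted P of Acsl1 to Acsl5 passed without ZT12 (0.0179) and was 0.0625 without ZT0, ZT3 or ZT9, 0.125 without ZT15, ZT18 or ZT21 and 0.241 without ZT6. That of Acsl1 to Acsl3 passed without ZT0 (0.0179), and was 0.0625 without ZT3 or ZT9, 0.161 without ZT12 and 0.241 without ZT6, ZT15, ZT18 or ZT21. With the counts of all peaks in each window summed, the ratio of Acsl1 to Acsl5 ran from 5.87 at ZT6 to 3.20 at ZT15 (exact JTK-cycle, P = 0.0260, adjusted 0.0781), and that of Acsl1 to Acsl3 between 11.8 and 14.6 (exact JTK-cycle, P = 1, adjusted 1).

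**Figure D4:**
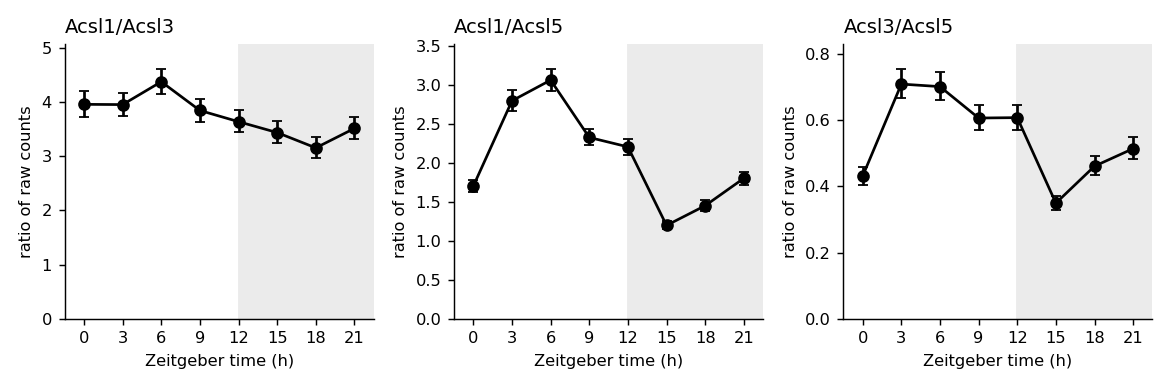
Ratio of the raw counts of the start-site peaks within each library by Zeitgeber time (linear axes from 0), with 95% counting intervals and the dark phase shaded. Acsl1/Acsl5 falls from 3.07 at ZT6 to 1.20 at ZT15, Acsl1/Acsl3 from 4.37 at ZT6 to 3.15 at ZT18, and Acsl3/Acsl5 from 0.709 at ZT3 to 0.349 at ZT15.

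For each start-site peak, the peaks nearest to the starts of other genes with the most similar course were listed by Pearson's r of the log2 normalized counts over the 8 libraries, as a description without a test, out of 6319 candidate peaks with a mean of at least 500. For Acsl1 they were the peak over the starts of Lipe, the gene of hormone-sensitive lipase, and 4732471J01Rik (r = 0.997) and the peak over Cryzl1 and Itsn1 (r = 0.994). Both had their highest value at ZT6 and their lowest at ZT15, as the Acsl1 start had, and the highest was 1.57 times the lowest at Lipe and 1.21 times at Cryzl1. For Acsl5 they were the peaks nearest to Ccl3, a chemokine gene (r = 0.969), Plpp3, a lipid phosphatase gene (r = 0.967), and 5730435O14Rik (r = 0.954), all with the highest value at ZT15. The peaks most like Acsl3 were those nearest to Scnn1b (r = 0.967), Trdn and Nkain2 (r = 0.956) and Mir6942 (r = 0.956), of which the first lay 18224 bases and the second 95911 bases from the start. All these peaks share the 8 libraries and their depth and scaling.

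Other genes that make, bind or use acyl-CoA were examined through the peaks nearest to their start sites, with the gene lists chosen for their role. Of 16 further synthetases and fatty acid transporters with synthetase activity, 14 had a peak, and 7 of their 48 peaks were oscillating by JTK-cycle and 7 passed the cosine. The peak of Slc27a1, which encodes a fatty acid transport protein, was the strongest of this list and stood highest at ZT6 with 5048 and lowest at ZT15 with 3379 (JTK-cycle, adjusted P = 0.00595; edgeR cosine, adjusted P = 0.0365), as Acsl1 did. The single peak of Acsm5, a medium-chain synthetase, was highest at ZT12 with 1452 and lowest at ZT0 with 956 (JTK-cycle, adjusted P = 0.000744; edgeR cosine, adjusted P = 0.00307). Acsm3, another medium-chain form, was highest at ZT15 with 964 and lowest at ZT3 with 542 (JTK-cycle, adjusted P = 0.0260; edgeR cosine, adjusted P = 0.00568), the same time points as the Acsl5 start. Acsl4 and Acsl6, the remaining long-chain synthetases of the family, had 4 peaks and 1 peak, of which 0 passed either test, and the strongest peak of Acsl4 ranged from 577 at ZT18 to 969 at ZT6 (JTK-cycle, adjusted P = 0.212; edgeR cosine, adjusted P = 0.0550).

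Among 10 genes that bind or hydrolyse acyl-CoA, 5 of 42 peaks were oscillating and 5 passed the cosine, at Dbi, the acyl-CoA binding protein, and Acot1, a cytosolic thioesterase. Among 7 genes that place acyl-CoA into triglycerides, 16 of 74 peaks were oscillating and 22 passed the cosine. An oscillating peak was present at 7 of these 7 genes, and at 6 of 16, 2 of 10 and 3 of 10 genes of the synthetase, binding and oxidation lists. The genes differ in their number of peaks, and the share of all genes with such a peak is not given here. Among 10 genes of fatty acid oxidation, 4 of 32 peaks were oscillating and 8 passed the cosine, as at Cpt1a, the gate of long-chain acyl-CoA into mitochondria, whose strongest peak ranged from 2193 at ZT15 to 3066 at ZT6 (JTK-cycle, adjusted P = 0.0260; edgeR cosine, adjusted P = 0.0288). The strongest peak of every gene in this last list stood highest at ZT6, the time point at which 34.4% of all strong peaks had their highest value. The shares of oscillating peaks by JTK-cycle in the 4 lists were 14.6%, 11.9%, 21.6% and 12.5%, beside the 11.6% of all peaks and the 34.5% of the Acsl1 window. By the cosine they were 14.6%, 11.9%, 29.7% and 25%, beside 13.4% of all peaks and 27.6% of the Acsl1 window. The lists hold peaks by nearest start site, whereas the shares of the Acsl1 window include its peaks nearest to Helt or Cenpu, so the 2 kinds of share are not on the same basis.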

How the data were processed

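The authors mapped PPARγ ChIP-sequencing reads of pooled iBAT to mm10 with BWA-MEM (0.7.17), called peaks with MACS2 (2.1.2), kept peaks significant in at least 6 of 8 libraries (FDR 0.05) and used HTSeq-count (1.99.2) to count the reads of each. The deposited values are these counts, not normalized by the authors. The labels give 8 mice per pool, and the section on animals gives 4 per time point. Samples were matched to columns by their labels.

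TMM factors and the cosine test came from edgeR 4.0.16 (R 4.3.3, common dispersion 0.0116). JTK-cycle was written anew in Python 3.11.15. Its ordering of equal cosine values and its choice of LAG were adopted after comparison with the supplementary table of the paper. Cosine amplitudes are least-squares fits to log2 normalized counts with 5 residual degrees of freedom. Genes and start sites are curated RefSeq transcripts of GRCm38.p6. Both tests were tested on simulated counts whose cosine changes were larger than those of most members. How well they detect changes as small as those of the members was not tested. Alternatives were other scalings (limma 3.58.1, DESeq2 1.42.0), filters, thresholds, periods, each library left out in turn and assignment by nearest start site.

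The peaks that hold a start site and those that passed both tests are given in full, and every other member with its 8 values unless its mean was under 100. Peaks most like a start-site peak were listed by Pearson's r, and 1 of these is not reported here. The windows, members and gene lists were chosen with earlier results of these data known. Wilson intervals cover counting error only.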

Additional observations from a re-analysis of the deposited data

How the results depend on the processing

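The number of oscillating peaks by JTK-cycle (11 of 41, with 10 at Acsl1, 1 at Acsl3 and 0 at Acsl5) was 5, 5, 0 and 0 with library totals only and with cyclic loess, 8, 8, 0 and 0 with upper-quartile factors, 0, 0, 0 and 0 at a threshold of 0.01, and 1, 1, 0 and 0 with equal cosine values kept tied. The tied patterns were scored by the distribution for untied values, whose highest scores they cannot reach. Leaving out each library in turn gave 5 to 10 JTK-cycle calls in all, 5 to 8 at Acsl1, 0 to 2 at Acsl3 and 0 to 2 at Acsl5. The number of peaks that passed the cosine by edgeR (9, with 8, 0 and 1) was 7, 5, 0 and 2 with library totals only, 8, 5, 1 and 2 with cyclic loess, 3, 3, 0 and 0 at 0.01, 12, 9, 1 and 2 by the DESeq2 likelihood ratio test and 15, 12, 1 and 2 with a period of 21 h. With each library left out it was 1 to 12 in all, 1 to 10 at Acsl1, 0 to 1 at Acsl3 and 0 to 3 at Acsl5. The shares of all peaks under these alternatives are not given here. The adjusted P of the ratio of start-site peaks (exact JTK-cycle) was 1 for Acsl1 to Acsl3 and 0.0781 for Acsl1 to Acsl5 with all peaks of the windows summed, and 0.0661 for Acsl1 to Acsl5 with a period of 24 h only. It ranged from 0.0179 to 0.241 for both pairs with each library left out. The smallest P that 7 libraries allow by JTK-cycle is 0.00595. The causes of these changes were not tested. Of the 41 ratios of highest to lowest value, 36 under library totals and 33 under cyclic loess stayed within the counting interval of the reported ratio. The 8 that left it under cyclic loess were all among the 10 peaks with a mean of at least 1000 and included the 3 start-site peaks, Acsl1 peak 15 with 1.22 for 1.55, Acsl3 peak 5 with 1.12 for 1.22 and Acsl5 peak 2 with 1.95 for 1.72. No paired analysis was possible because each time point had 1 library. Depth limits the weakest member most, an Acsl3 peak whose Wilson intervals ran from 56.9 to 90.9 at its highest value and from 24.4 to 47.2 at its lowest.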
